A study of Mus musculus with 18 samples.

Results

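The genes followed here carry dietary fat through the absorptive cell, and they were measured in sorted epithelium of the ileum, the end of the mouse small intestine. They were taken by symbol from a fixed list of uptake and triglyceride resynthesis genes, Fabp1, Fabp2, Cd36, Slc27a4, Acsl5, Mogat2, Dgat1, Dgat2, Plin2 and Plin3. All 10 were found among the 47729 gene identifiers of the count tables, and all 10 passed the filter on low counts that left 15572 genes for testing. The groups were 6 libraries of lactating females at day 7 of lactation, 6 of age-matched virgin males and 6 of age-matched virgin females. All mice ate standard chow, which was RM3 while they bred and RM1 otherwise. Chow may thus have differed between lactating and virgin mice, and its part cannot be told apart from that of lactation. All epithelium was isolated by fluorescence-activated cell sorting. The series asks how the maternal intestine changes in pregnancy and lactation. The labels give neither the sorting gates nor the position along the ileum, nor whether each library came from 1 animal, so p-values measure the spread between these libraries.

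As background, fat in the gut lumen is digested to fatty acids and monoacylglycerol, which enter the enterocyte across the brush border. Inside the cell fatty acids are carried by binding proteins, activated to acyl-CoA and joined again to monoacylglycerol, first to diacylglycerol and then to triglyceride. The triglyceride either leaves the cell in chylomicrons or is held for a time in lipid droplets. Most of this work is done in the upper small intestine, and the ileum takes up what passes it. The enterocytes that do it lie on the villi, while dividing cells lie in the crypts.

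Library totals ran from 34577104 to 49039300 counts. Levels are given as CPM, counts normalised to library size and scaled with TMM factors, and levels of different genes are compared only as CPM per kilobase of exon. The sorted cells carried the enterocyte markers at a summed 12864 to 38857 CPM, and markers of cells outside the epithelium were at or near 0, apart from the adipocyte gene Cidec. The 7 stromal markers summed to at most 0.614 CPM in a library, the 7 lymphocyte and other leukocyte markers to at most 1.48 CPM and the 6 macrophage markers to at most 2.67 CPM. The 7 endothelial markers summed to at most 7.24 CPM, of which Lyve1 alone reached 6.90 CPM. Of the 6 adipocyte genes, Lep, Cfd and Plin1 had 0 counts in all 18 libraries, which allows up to 0.0882 CPM, Adipoq and Retn reached at most 0.0866 and 0.0415 CPM, and Cidec, a droplet protein described further on, ran from 13.6 to 163 CPM. Virgin female 2 and virgin male 6 stood apart, with 31050 and 29980 CPM of Gm42418, a gene that overlaps ribosomal RNA sequence, against 1230 to 4477 CPM in the other 16 libraries. Virgin male 6 also had 5.85 CPM of the female-specific RNA Xist, against at most 0.283 CPM in the other 5 males. Results were therefore also computed without both libraries.

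The promoters of Fabp1, Fabp2 and Cd36 are shown because these 3 genes hold the 2 highest levels and the lowest level of the set, and because their levels differed most between libraries. RefSeq (GRCm38.p6) gave a promoter, 250 bases before to 50 after the start, for 7 of the 10 genes, the others being Mogat2, Dgat1 and Dgat2. Capitals mark TGACCT, the reverse complement of the nuclear receptor motif AGGTCA, in Fabp1 and Cd36, and TTTATTG, a motif of the intestinal factor CDX2, in Fabp2.
Fabp1: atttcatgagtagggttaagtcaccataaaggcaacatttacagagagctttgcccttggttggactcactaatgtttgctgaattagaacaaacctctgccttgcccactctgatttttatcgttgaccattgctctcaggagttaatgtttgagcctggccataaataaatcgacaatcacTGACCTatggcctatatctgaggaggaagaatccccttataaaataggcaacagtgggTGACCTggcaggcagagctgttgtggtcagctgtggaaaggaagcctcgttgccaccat
Fabp2: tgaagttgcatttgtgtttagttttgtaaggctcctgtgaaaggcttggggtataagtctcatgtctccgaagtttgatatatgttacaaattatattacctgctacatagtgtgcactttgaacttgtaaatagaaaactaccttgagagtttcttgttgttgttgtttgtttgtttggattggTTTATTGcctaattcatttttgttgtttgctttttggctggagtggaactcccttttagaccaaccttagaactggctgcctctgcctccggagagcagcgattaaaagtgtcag
Cd36: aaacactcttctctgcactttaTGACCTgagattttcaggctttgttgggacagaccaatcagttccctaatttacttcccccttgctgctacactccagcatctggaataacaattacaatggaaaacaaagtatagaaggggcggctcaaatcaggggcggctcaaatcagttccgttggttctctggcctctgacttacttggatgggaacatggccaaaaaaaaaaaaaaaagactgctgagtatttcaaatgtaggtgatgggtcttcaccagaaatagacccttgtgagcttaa
These windows lie at chr6:71199629-71199928 on the plus strand, chr3:122894822-122895121 on the plus strand and chr5:17835847-17836146 on the minus strand. The Cd36 window is that of 1 RefSeq start, and the GENCODE M21 gene reaches further upstream, to position 17888801. The GENCODE M21 gene of Fabp1 also begins upstream of its RefSeq start, at position 71199827, so the second TGACCT lies inside that gene.

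AGGTCA was searched on both strands. It was found in 3 of the 7 promoters, against 16.3% of the 32851 mouse promoters of the same length. Fabp1 held it at positions -67 to -62 and -9 to -4 from the start, Cd36 at -228 to -223 and Plin2, whose droplet-coat protein is described further on, at -218 to -213. TTTATTG was found in 1 of the 7, at -65 to -59 in Fabp2, against 4.6% of all promoters. The exact DR1 repeat, a pair of AGGTCA 1 base apart that is bound by PPAR with its partner RXR, was in 0 of the 7 and in 0.0396% of all promoters. Repeats with a mismatch, such as TGACCTatggcct in Fabp1, were not searched. The HNF4 motif CAAAGTCCA was in 0 of the 7 and in 0.475% of all. These are matches of letters and say nothing of binding.

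The 10 genes spanned a wide range of levels, and their order hardly changed between libraries. Per length, the intracellular binding proteins led. Fabp2 averaged 8599 CPM per kb over the 18 libraries and Fabp1 769 CPM per kb. Acsl5 followed at 248, Slc27a4 at 205.5, Dgat1 at 192, Mogat2 at 177.5, Plin3 at 103, Dgat2 at 49.8, Plin2 at 19.7 and Cd36 at 5.60 CPM per kb. Fabp2, Fabp1, Plin3, Dgat2, Plin2 and Cd36 held the same rank in all 18 libraries. The middle 4 were less well separated. Acsl5 was above Slc27a4 in 17 of 18 libraries and Dgat1 above Mogat2 in 14 of 18, while Slc27a4 was above Dgat1 in 9 of 18, so that the order of this last pair was not fixed. In all, the 10 genes took 0.815% to 2.26% of the counts in lactating females, 0.526% to 1.13% in virgin males and 0.852% to 2.14% in virgin females.

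**Figure D1:**
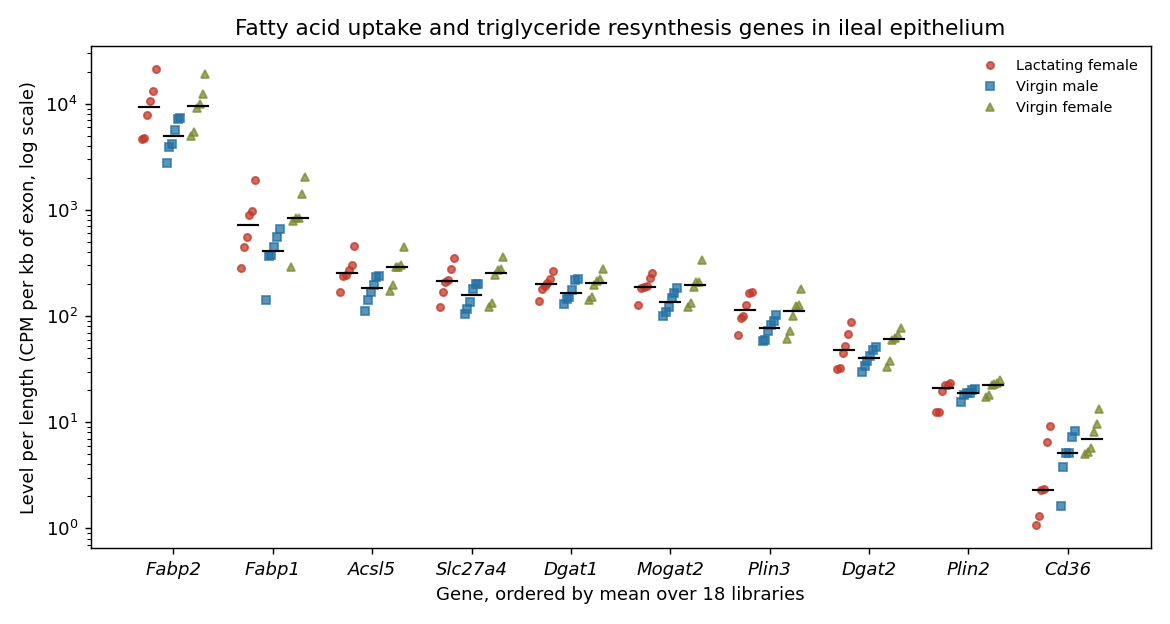
Level of each gene in CPM per kb of exon (log axis) in each library, with lactating females, virgin males and virgin females side by side and a bar at each group's median. Fabp2 at 8599 CPM per kb on average lies at the top and Cd36 at 5.60 CPM per kb at the bottom, and the groups of every gene overlap.

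No gene of the set passed the test in any comparison. With edgeR's quasi-likelihood test, adjusted by Benjamini-Hochberg over the 15572 genes, 0 of 10 were called at an adjusted p under 0.05 in lactating against virgin females, where 0.0578% of all genes were called. The count was also 0 of 10 in virgin males against virgin females (0.0835% of all genes) and in lactating females against virgin males (0.764%). DESeq2 and limma with voom weights also called 0 of 10 in each. At an unadjusted p under 0.05 the set had 1 lower gene in the first comparison (3.04% of all genes were lower at that p), 4 lower genes in the second (6.02%) and 5 higher genes in the third (10.5%). The 1 was Cd36, the 4 were Fabp1, Fabp2, Acsl5 and Mogat2, and the 5 were these 4 with Plin3. No gene had groups that did not overlap, as 0.289%, 0.430% and 1.34% of all genes did in the 3 comparisons. The comparisons share libraries, so their values are set side by side and not counted as separate evidence. The third comparison differs in both sex and lactation.

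The direction of the values differed between the comparisons. The median log2 fold change of the 10 genes was -0.05 in lactating against virgin females, with 7 of 10 below 0 (50.6% of all genes were). In virgin males against virgin females it was -0.55, with 10 of 10 below 0 (52.0% of all genes), and in lactating females against virgin males it was 0.50, with 9 of 10 above 0 (48.9%). Over all genes these medians were -0.0026, -0.013 and -0.0084. Without virgin female 2 and virgin male 6 the medians of the 10 genes were -0.0066, -0.45 and 0.42. In bulk samples, fewer enterocytes and less RNA per enterocyte cannot be told apart.

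**Figure D2:**
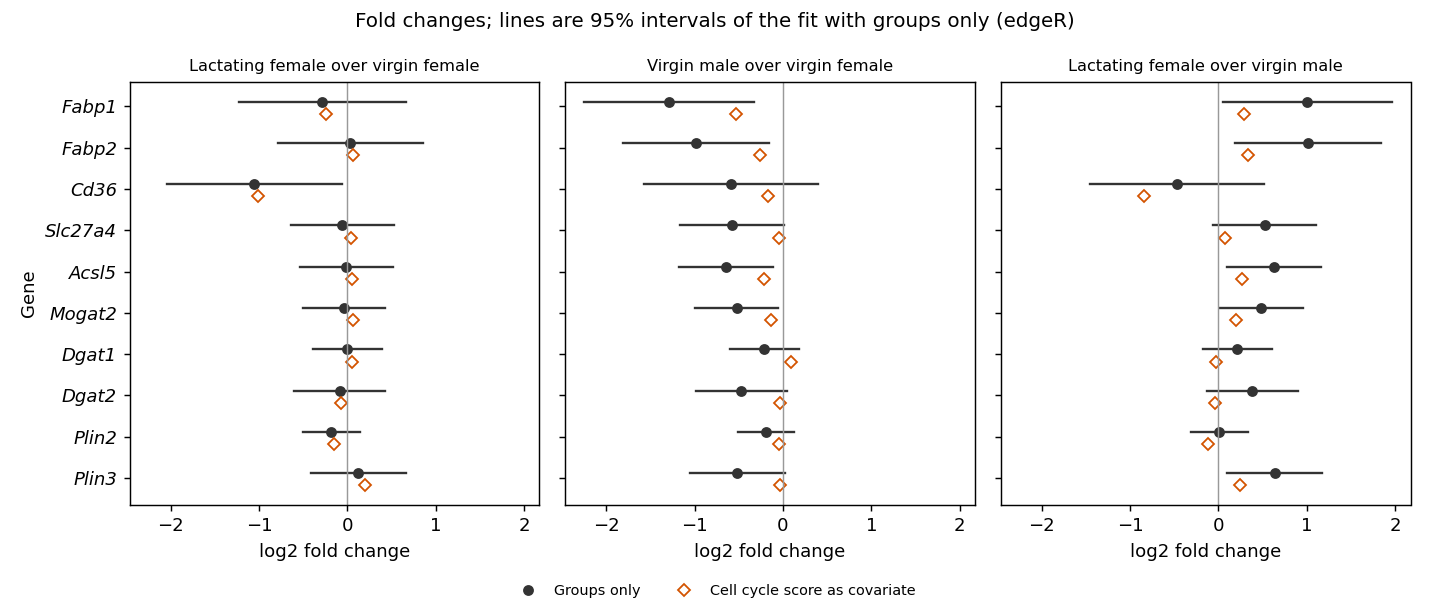
Log2 fold change of each gene in the 3 comparisons, from edgeR, as black points with 95% intervals, and as open diamonds where a cell cycle score was added to the model. Black points lie near 0 in lactating against virgin females apart from Cd36 at -1.05, and all lie below 0 in virgin males against virgin females. The diamonds lie nearer to 0 than the points for 10 of 10 genes in virgin males against virgin females. The count is 8 of 10 in lactating females against virgin males, which shares the male libraries, and 5 of 10 in lactating against virgin females. The share over all genes is not given here.

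Fatty acid uptake is represented by Cd36 and Slc27a4. Cd36 is a scavenger receptor that binds long-chain fatty acids, and Slc27a4 is the fatty acid transport protein FATP4, which also activates fatty acids. Cd36 stood at 3.83 CPM in the lowest, 8.31 CPM at the median and 32.9 CPM in the highest lactating library. Virgin males had 5.79, 18.3 and 29.8 CPM by the same measures, and virgin females 17.8, 24.9 and 48.1 CPM. Lactating 2, 3, 5 and 6 lay at 3.83 to 8.41 CPM, below every virgin female, while lactating 1 and 4 reached 23.1 and 32.9 CPM, inside the range of the virgin females. The lactating mean was 13.5 ± 11.8 CPM and the virgin female mean 28.1 ± 11.7 CPM (SD, n = 6 each), a log2 fold change of -1.05 (SE 0.47, 95% interval -2.04 to -0.06). With edgeR the unadjusted p was 0.0385 and the adjusted p 0.736, so the difference did not hold up over all genes tested. The fold change stayed between -1.54 and -0.83 when each library was left out in turn, and its lowest adjusted p in any alternative was 0.362. In virgin males Cd36 averaged 18.7 ± 8.62 CPM (SD, n = 6), with a log2 fold change of -0.59 (SE 0.47) against virgin females. Lactating females against virgin males gave -0.46 (SE 0.47), the only negative value of the set in that comparison. Without virgin female 2 and virgin male 6 the male value was -0.18 and the value of lactating females against males -0.65.

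Slc27a4 was expressed at 535.5, 949 and 1560 CPM (lowest, median and highest) in lactating females. Virgin males had 464, 696 and 893 CPM, and virgin females 541.5, 1132 and 1586 CPM. The highest male library lay below the medians of both female groups, and the groups overlapped. The log2 fold change was -0.06 (SE 0.28) in lactating against virgin females and -0.58 (SE 0.28, 95% interval -1.16 to 0.01) in virgin males against virgin females, with all 6 males below the virgin female mean. The per-length ratio of Cd36 to Slc27a4 averaged 0.0166 ± 0.0135 in lactating females, 0.0319 ± 0.00919 in virgin males and 0.0350 ± 0.0103 in virgin females (SD, n = 6 each). The ratio was not tested.

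Binding in the cytosol is the task of Fabp1, the liver-type protein, which also carries other lipids, and Fabp2, the intestinal type. Fabp1 had 158, 399 and 1069 CPM (lowest, median and highest) in lactating females. Virgin males had 78.1, 227 and 362 CPM, and virgin females 160.0, 462 and 1135 CPM. Every male library was below the virgin female median, and the ranges overlapped only through virgin female 4. The means were 234 ± 97.2 CPM in virgin males and 572 ± 338 CPM in the virgin females (SD, n = 6 each), a log2 fold change of -1.29 (SE 0.46, 95% interval -2.25 to -0.33), the largest of the set. With edgeR the unadjusted p was 0.0112 and the adjusted p 0.565. Lactating females, at 470 ± 328 CPM (SD, n = 6), had a log2 fold change of 1.01 (SE 0.46, adjusted p 0.296) against virgin males, which was 0.58 without lactating 1, and of -0.28 (SE 0.45, 95% interval -1.23 to 0.66) against virgin females.

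Fabp2 had 4544, 8911 and 20636 CPM (lowest, median and highest) in lactating females. Virgin males had 2665, 4771 and 7015 CPM, and virgin females 4798, 9235 and 18594 CPM. The lactating and virgin female ranges nearly coincided, and all 6 males lay below the virgin female mean. The log2 fold change was -0.98 (SE 0.39, adjusted p 0.565) in virgin males against virgin females and 1.01 (SE 0.39, adjusted p 0.239) in lactating females against virgin males, with edgeR. Between lactating and virgin females it was 0.03 (SE 0.39, 95% interval -0.78 to 0.85), an interval that leaves room for a change of either sign. Per length, Fabp1 amounted to 0.0794 ± 0.0151 of Fabp2 in lactating females, 0.0813 ± 0.0236 in virgin males and 0.102 ± 0.0390 in virgin females (SD, n = 6 each), differences within the spread between libraries.

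Activation to acyl-CoA is represented by Acsl5, a long-chain acyl-CoA synthetase that is abundant in the intestine. It had 821, 1250 and 2225 CPM (lowest, median and highest) in lactating females. Virgin males had 543, 886 and 1161 CPM, and virgin females 846, 1412 and 2155 CPM. All 6 males lay below the virgin female mean. The log2 fold change was -0.64 (SE 0.25, edgeR adjusted p 0.565) in virgin males against virgin females and 0.63 (SE 0.25, adjusted p 0.254) in lactating females against virgin males. It was -0.01 (SE 0.25, 95% interval -0.54 to 0.52) in lactating against virgin females. Acsl5 shares 404 exon bases with Zdhhc6 on the other strand, which was at 24.5 to 31.9 CPM, and the strand setting of the counting was not given in the sources used here.

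Resynthesis runs through Mogat2, the monoacylglycerol acyltransferase of the intestine, and then Dgat1 or Dgat2, which add the last fatty acid. Mogat2 had 233, 347 and 464 CPM (lowest, median and highest) in lactating females. Virgin males had 184, 249 and 339 CPM, and virgin females 226, 361 and 613 CPM. The males were again the lowest group, with all 6 below the virgin female mean and a log2 fold change of -0.52 (SE 0.22, edgeR adjusted p 0.565). Lactating females differed from males by 0.49 (SE 0.22, adjusted p 0.299) and from virgin females by -0.04 (SE 0.22) on the log2 scale.

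Dgat1 had 425.5, 609 and 811 CPM (lowest, median and highest) in lactating females. Virgin males had 398, 501 and 676 CPM, and virgin females 434, 628 and 856 CPM. It was the steadiest of the enzymes, with log2 fold changes of 0.00083 (SE 0.19, 95% interval -0.39 to 0.39) in lactating against virgin females, -0.21 (SE 0.19) in virgin males against virgin females and 0.21 (SE 0.19) in lactating females against virgin males. Dgat2 had 97.4, 149 and 270 CPM (lowest, median and highest) in lactating females. Virgin males had 91.8, 123 and 157 CPM, and virgin females 102, 187 and 239.5 CPM. Its log2 fold changes in the same order were -0.09 (SE 0.25), -0.47 (SE 0.25) and 0.38 (SE 0.25), and none passed the test. Per length, Dgat1 exceeded Dgat2 in every library, by 4.09 ± 0.938 times in lactating females, 4.30 ± 0.529 times in virgin males and 3.69 ± 0.604 times in virgin females (SD, n = 6 each). Dgat2 and Mogat2 are neighbours on chromosome 7 and are both on the minus strand, at chr7:99153658-99182719 and chr7:99219084-99238619 (GRCm38).

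Droplet coating is represented by Plin2 and Plin3, perilipins that cover droplets in many tissues. Plin2 had 44.2, 73.7 and 82.5 CPM (lowest, median and highest) in lactating females. Virgin males had 54.6, 66.2 and 72.3 CPM, and virgin females 60.8, 79.2 and 87.0 CPM. Lactating 3 and 6 lay at 44.3 and 44.2 CPM, below every other library, and the other 4 lay at 69.3 to 82.5 CPM. These 2 libraries also had the lowest Cd36. The log2 fold change of Plin2 was -0.18 (SE 0.15, 95% interval -0.50 to 0.14) in lactating against virgin females, -0.19 (SE 0.15) in virgin males against virgin females and 0.01 (SE 0.15) in lactating females against virgin males.

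Plin3 had 249, 432 and 634 CPM (lowest, median and highest) in lactating females. Virgin males had 221, 292 and 386 CPM, and virgin females 230, 424 and 683 CPM. Its log2 fold change was -0.51 (SE 0.26) in virgin males against virgin females and 0.64 (SE 0.26, edgeR adjusted p 0.256) in lactating females against virgin males. Against virgin females the lactating value was 0.12 (SE 0.26). Per length, Plin2 amounted to 0.172 ± 0.0775 of Plin3 in lactating females, 0.249 ± 0.0432 in virgin males and 0.211 ± 0.0560 in virgin females (SD, n = 6 each), and the groups overlapped.

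Most of the genes varied widely between libraries of 1 group. The pooled SD of log2 CPM within groups was 0.92 for Cd36, 0.90 for Fabp1, 0.72 for Fabp2, 0.53 for Slc27a4, 0.49 for Plin3, 0.47 for Dgat2, 0.46 for Acsl5, 0.41 for Mogat2, 0.33 for Dgat1 and 0.29 for Plin2. The median over the 3596 genes with a mean of at least 50 CPM, a level that Cd36 does not reach, was 0.25. Within a group the genes were high or low in the same libraries. Lactating 1 was the highest lactating library for 8 of the 10 genes, virgin female 1 the highest virgin female for 8 of 10, and virgin female 4 the lowest for 8 of 10. Virgin male 6 was the lowest male library for 10 of 10, and lactating 2 and 3 were the lowest lactating libraries for 5 and 4 of 10.

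The shared variation was described by Pearson's r of log2 CPM after subtraction of each group's mean, over the 18 libraries, which also share depth and scaling. The median r of the 45 pairs was 0.823, with a range of 0.373 to 0.977. Slc27a4 and Dgat1 were the most alike, at 0.977. Among the 28 pairs without Cd36 and Plin2 the median was 0.905 and the lowest value 0.751. The 9 pairs with Cd36 had a median of 0.611 and the 9 with Plin2 a median of 0.591, yet Cd36 and Plin2 went together, at 0.801. Cd36 and Plin3 were the least alike, at 0.373. Without virgin female 2 and virgin male 6 the median over all pairs was 0.838.

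**Figure D3:**
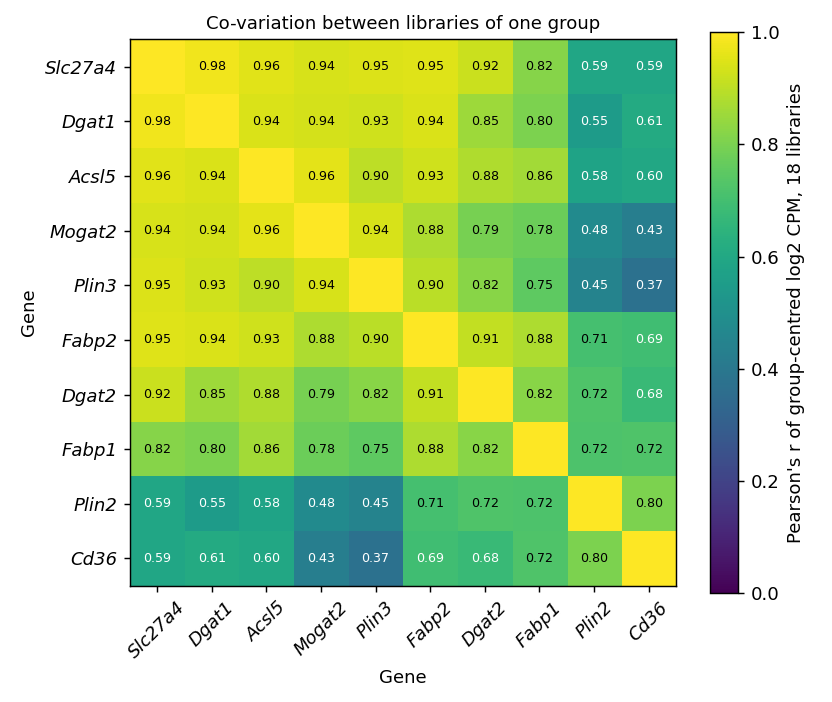
Pearson's r of group-centred log2 CPM over 18 libraries for each pair of genes, as colour and number. Slc27a4 to Fabp1 form a block in which no pair is under 0.75, while Cd36 and Plin2 have a median r of 0.611 and 0.591 with the other genes and 0.801 with each other.

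Outside the set, the genes most alike to each member by the same r were sought among 9358 genes with a mean of at least 5 CPM. For Fabp1 these were Rbp2, a retinol-binding protein of the enterocyte, at 0.950 and Rec8 at 0.947. For Fabp2 they were Abhd5, a coactivator of triglyceride lipolysis, at 0.975 and Phyh, an enzyme of peroxisomal fatty acid oxidation, at 0.973. Cd36 was most like Sesn2, a stress-induced gene, at 0.941 and Lct, the brush border lactase, at 0.930. Slc27a4 was most like Urgcp at 0.993 and Aplp1 at 0.985, and Dgat1 like Ugdh at 0.980 and Urgcp at 0.974. Acsl5 was most like H2-Q2, one of a family of close copies whose counts are uncertain, and Cs, the citrate synthase, both at 0.981, and Mogat2 like Gnb1 and Ilvbl, both at 0.981. Dgat2 was most like Chp1 at 0.971 and Ormdl3 at 0.969. Plin2 was most like Hsd17b4, a peroxisomal beta-oxidation enzyme, at 0.950 and Rdh7 at 0.949, and Plin3 like Cdkn1a, an inhibitor of cell division, and Espn, a protein of microvillus actin bundles, both at 0.987.

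Levels of most of the genes ran opposite to a measure of cell division. The cell cycle score, the mean log2 CPM of 35 proliferation genes, ran from 3.53 to 5.21 in lactating females, 4.63 to 5.09 in virgin males and 3.60 to 5.14 in virgin females. Within groups its r with the genes was -0.919 for Slc27a4, -0.905 for Fabp2, -0.896 for Dgat2 and for Plin3, -0.879 for Dgat1, -0.855 for Acsl5, -0.835 for Mogat2 and -0.747 for Fabp1. It was -0.557 for Plin2 and -0.480 for Cd36. The median over the 3596 genes of at least 50 CPM was -0.456. With the score removed, the median r of the 45 pairs was 0.550. Cd36 and Plin2 stayed at 0.733, whereas Cd36 and Plin3 were at -0.146. Lactating 1 and virgin female 1, which led their groups for most genes, had the lowest scores, 3.53 and 3.60. Virgin male 6, the lowest male for 10 of 10 genes, had a score of 4.86, inside the range of the other males. By group, r with the score ran from -0.980 (Slc27a4) to -0.438 (Plin2) in lactating females and from -0.989 (Dgat1) to -0.727 (Cd36) in virgin females. In virgin males it ran from -0.825 (Plin3) to -0.197 (Fabp1).

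**Figure D4:**
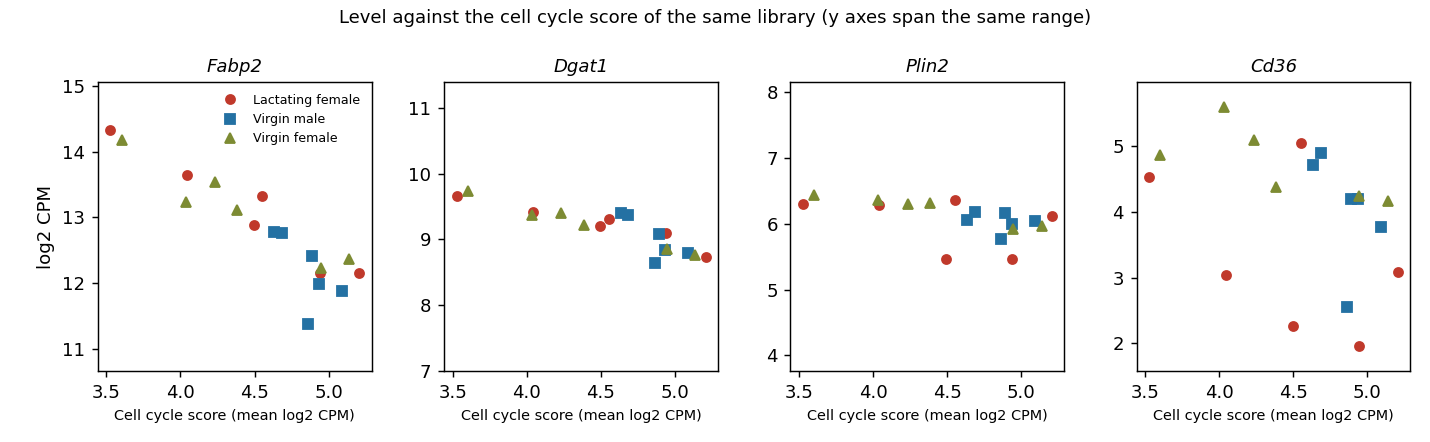
Log2 CPM of Fabp2, Dgat1, Plin2 and Cd36 in each library against the cell cycle score of that library, with y axes of equal span. Fabp2 and Dgat1 decline with the score (r within groups -0.905 and -0.879), Plin2 less so (-0.557), and 4 lactating libraries, with scores of 4.04 to 5.21, lie at 8.41 CPM or less for Cd36.

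Values of cell type markers are given beside those of the 10 genes. In virgin males against virgin females, 35 of 35 cell cycle genes had fold changes above 0, with a median log2 fold change of 0.36, and 11 of 11 enterocyte markers were below 0, with a median of -0.57. None of either list was called by edgeR, DESeq2 or voom, 1 and 6 genes of the lists had an unadjusted p under 0.05 with edgeR, and the part of cell makeup in the values of the 10 genes was not tested beyond the covariate fit given here. The 35 cell cycle genes summed to 541 to 1694 CPM in lactating females, 1137 to 1538 CPM in virgin males and 547 to 1648 CPM in virgin females, and the 11 enterocyte markers to 17231 to 34006 CPM in lactating females, 12864 to 21428 CPM in virgin males and 16421 to 38857 CPM in virgin females. For lactating against virgin females the enterocyte markers had a median of -0.02 and the cell cycle genes 0.10. The 7 villus tip markers had 1.25, with 0 called by any of the 3 tools. With edgeR 2 of the 7 had an unadjusted p under 0.05. The 12 stem cell markers had a median of -0.20 there, with 0 above 0, and 28 of 35 cell cycle genes were above 0. In lactating females against males, 0 of 35 cell cycle genes and 0 of 12 stem markers were above 0 (medians -0.28 and -0.53). The enterocyte markers had 10 of 11 above 0 and the villus tip markers 7 of 7 (medians 0.55 and 1.35). DESeq2 called Enpp3 and Pmp22 of the villus tip list there, and edgeR and voom called 0. Of 11 enteroendocrine genes, Gcg alone was called by edgeR, in lactating females against males, with a log2 fold change of 0.90. DESeq2 called Gcg, Chga and Tac1 in lactating females against both virgin groups, and voom called 0. Among 5 markers of the upper small intestine, Slc40a1, an iron exporter, and S100g, a calcium carrier, rose in lactating females, by 1.47 and 4.69 against virgin females and by 1.76 and 4.71 against males on the log2 scale with edgeR. DESeq2 made the same calls, and voom made them apart from that of S100g against virgin females. The list of 5 as a whole was mixed. Against virgin females 2 were above 0 and 3 below, with a median log2 fold change of -0.36. Against males 3 were above 0 and 2 below, with a median of 0.58. Of 5 ileal markers, Fgf15, a hormone induced by bile acids, was called by edgeR in virgin males against virgin females, with a log2 fold change of -2.97, and edgeR called 0 others. DESeq2 made this call, and it also called Fgf15 in lactating against virgin females (-1.96) and Fabp6 and Slc10a2 in lactating females against males (1.08 and 1.12), while voom called 0. Whether position along the ileum differed between groups was not tested. When the cell cycle score was added to the model, it had a common slope in all groups. The median of the 10 genes was then 0.04 in lactating against virgin females, -0.09 in virgin males against virgin females and 0.14 in lactating females against virgin males. Fabp1 and Fabp2 then had log2 fold changes of -0.54 and -0.26 in males against virgin females. The value of Cd36 in lactating against virgin females was close with the score to that without it, at -1.01 (edgeR adjusted p 0.362), and it was -0.84 in lactating females against virgin males.

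Other genes of the pathway, in 8 lists, gave few calls. With edgeR, Ces1e and Acadl were the only ones, both in lactating females against males. DESeq2 called these with Fabp6 and Angptl4 in that comparison, limma with voom weights called Ces1e and Acadl, and neither called others elsewhere. At an unadjusted p under 0.05 in either direction the 78 tested genes of the lists held 9 in lactating against virgin females, which is 11.5% (6.44% of all genes). They held 21 in virgin males against virgin females, or 26.9% (8.32% of all genes), and 25 in lactating females against virgin males, or 32.1% (15.9%). The lists were chosen with results of these data known, so these shares were not tested. Of the 5 other fatty acid binding proteins, Fabp6, the ileal bile acid binder, and Fabp5 were tested, and edgeR called 0. Fabp6 was the strongest of the family per length, at 9682 CPM per kb over all libraries, next to 8599 CPM per kb for Fabp2. It averaged 6347 ± 3572 CPM in lactating females, 3026 ± 562 CPM in virgin males and 4541 ± 2148 CPM in the virgin females (SD, n = 6 each), and its log2 fold change in lactating females against males was 1.07 (SE 0.32, edgeR adjusted p 0.147). Fabp3, Fabp4 and Fabp7 reached at most 0.264 CPM in a library.

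Of 14 other genes of fatty acid transport and activation, 10 were tested and 0 were called in any comparison. The very-long-chain transporter Slc27a2 had the smallest p in lactating against virgin females, with a log2 fold change of -0.61 (SE 0.19, edgeR adjusted p 0.497). Slc27a2 was also lower in virgin males against virgin females, at -0.46 (SE 0.19, edgeR adjusted p 0.565). Lactating females against males gave -0.16 (SE 0.19). The synthetases Acsl1 and Acsl3 averaged 4.74 and 9.03 CPM per kb, against 248 CPM per kb for Acsl5. The list of the glycerol phosphate route, which builds triglyceride from glycerol phosphate in place of monoacylglycerol, had 15 genes, Mogat1 among them although it acts on monoacylglycerol, and 13 were tested and 0 were called. In virgin males against virgin females 8 of these 13 were below 0, with a median of -0.32, and glycerol kinase, Gk, had -0.71 (SE 0.22, adjusted p 0.565). Gpat3, an acyltransferase of the first step, averaged 30.2 CPM per kb. Mogat1, the relative of Mogat2, reached at most 0.0577 CPM.

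Of 15 other droplet proteins 10 were tested and 0 were called. Cidec, which enlarges droplets, averaged 70.5 ± 54.6 CPM in lactating females, 29.1 ± 14.1 CPM in virgin males and 42.6 ± 13.1 CPM in the virgin females (SD, n = 6 each), with a log2 fold change of 1.28 (SE 0.44, edgeR adjusted p 0.195) in lactating females against males. Plin1 was at 0 counts in every library, and Plin4 and Plin5 reached at most 0.205 and 0.122 CPM. Of 12 genes of triglyceride breakdown 10 were tested. The carboxylesterase Ces1e was called as lower in lactating females than in males, by 0.99 on the log2 scale (SE 0.19, edgeR adjusted p 0.0137). The other genes of this list were not called. The means were 5.23 ± 1.47 CPM for lactating females and 10.4 ± 2.46 CPM for virgin males (SD, n = 6 each). The lactating range of 3.61 to 7.00 CPM and the male range of 8.56 to 15.0 CPM did not overlap, as was so for 1.34% of all genes. Ces1 genes are a cluster of close copies, so its counts are uncertain.

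The 12 chylomicron genes, which take the product onward, had values on the same side of 0 as most of the set, with 0 called. In virgin males against virgin females 12 of 12 were below 0, with a median log2 fold change of -0.53, and in lactating females against males 12 of 12 were above 0, with a median of 0.45. Apob, the structural protein of the particle, had -0.80 (SE 0.34, edgeR adjusted p 0.565) and Mttp, which loads it with lipid, -0.53 (SE 0.23) in males against virgin females. The median of the 12 was -0.02 in lactating against virgin females.

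Cd36, Plin2 and Fabp1 are known targets of the PPAR fatty acid receptors, and so are 10 further genes that were listed as PPAR targets, of which 9 were tested. Within groups the mean log2 CPM of these 9 had an r of 0.812 with Cd36, 0.766 with Plin2, 0.721 with Dgat2, 0.675 with Fabp1 and 0.663 with Fabp2. The other 5 genes lay between 0.346 for Mogat2 and 0.569 for Slc27a4. In virgin males alone r was 0.516 for Cd36, 0.0915 for Plin2, 0.14 for Dgat2, 0.0922 for Fabp1 and 0.359 for Fabp2. With the mean log2 CPM of the enterocyte markers, r within groups was 0.628 for Cd36 and 0.559 for Plin2. It was higher for Dgat2 at 0.873, Fabp1 at 0.832 and Fabp2 at 0.924. Of the 9 listed PPAR targets, 8 were below 0 in virgin males against virgin females, with a median log2 fold change of -0.53. In lactating females against males 8 were above 0, with a median of 0.48. In lactating against virgin females 6 were below 0, with a median of -0.11. Acadl, a mitochondrial fatty acid oxidation enzyme of this list, was higher in lactating females than in males. The log2 fold change was 0.74 (SE 0.14, edgeR adjusted p 0.0137), and edgeR called 0 others of the list. Its means were 120 ± 27.1 CPM for lactating females and 71.6 ± 6.02 CPM for virgin males (SD, n = 6 each). Without virgin male 6 the call in lactating females against males was lost, at 0.70 (edgeR adjusted p 0.0502). Of 12 regulators of lipid genes 0 were called by any of the 3 tools. The coactivator Ppargc1a had -0.66 (SE 0.17, unadjusted p 0.00101, adjusted p 0.271 with edgeR) in lactating against virgin females, at 31.9 ± 5.79 CPM against 50.6 ± 14.9 CPM (SD, n = 6 each). In lactating against virgin females the receptor Pparg had 0.48 (SE 0.16, unadjusted p 0.00703, adjusted p 0.524 with edgeR). Srebf1, a factor of lipid synthesis, had -0.30 there (SE 0.11, edgeR adjusted p 0.641).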

How the data were processed

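Polyadenylated RNA of sorted ileal epithelium was extracted with a column kit and made into strand-keeping libraries, per the labels' protocols. The authors deposited 1 table of raw counts per library, with Ensembl identifiers. HISAT2 2.0.4, FastQC 0.11.5, DESeq2 1.24.0 and featureCounts (Subread 2.0.0) were used with GRCm38, per the submitters' processing notes. Not given in the sources used here were the annotation release, the strand setting and how multiply mapped reads were treated. Rows that name no gene numbered 0. Symbols, exon lengths and coordinates came from GENCODE M21, which held 47310 of the 47729 identifiers.

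Groups followed the labels. With edgeR 4.0.16 (R 4.3.3), filterByExpr kept 15572 genes, TMM factors scaled the libraries, and 1 quasi-likelihood model with 3 group means was fitted to all 18 libraries. P-values were adjusted by Benjamini-Hochberg over all genes tested and called at 0.05. SE is the absolute log2 fold change over the square root of F. Log2 CPM used a prior count of 2. The level of 0 counts allows 3 counts per library, and it covers counting error only, as the reads carry no molecular identifiers. The closest of 153 pairs of libraries had a chi-square per degree of freedom of 34.6, so none was a duplicate within sampling noise. The fit was tested on simulated data. Alternatives were RLE scaling, no filter, DESeq2 1.42.0, limma 3.58.1 with voom, a replicate block, 2 groups alone, 2 libraries left out, a cell cycle covariate and each library left out in turn. For Ces1e and Acadl these were added after their values were seen.

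The 10 genes, the gene lists and the promoter motifs were chosen with earlier results of these data known, so no list was tested. Named beside the 10 were genes of the lists that were called, up to 3 genes per pathway list and comparison by smallest p with a mean of at least 1 CPM, and the 2 genes most alike to each member. A gene that this rule names is not reported here. Further pathway genes named with levels alone (Acsl1, Acsl3, Gpat3, Mogat1, the other perilipins and binding proteins) were picked as family members after their values were seen.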

Additional observations from a re-analysis of the deposited data

How the results depend on the processing

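Across 600 refits of single genes (10 genes, 3 comparisons, 8 alternatives and 12 fits with a library left out), 552 kept their sign and 48 changed it. None became called, and no value that changed sign exceeded 0.306 in size. The cause was not tested.

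In lactating against virgin females, Dgat1 was -0.0041 without the filter, Fabp2 -0.030 and Mogat2 0.0060 with voom, and Dgat2 0.029 without virgin female 2 and virgin male 6. With the replicate block Slc27a4 was 0.010, Acsl5 0.024 and Mogat2 0.024. With the cell cycle covariate Slc27a4 was 0.038, Acsl5 0.049 and Mogat2 0.062. Leaving out 1 library gave -0.71 to 0.032 for Fabp1, -0.31 to 0.32 for Fabp2, -0.23 to 0.11 for Slc27a4, -0.21 to 0.16 for Acsl5, -0.14 to 0.17 for Mogat2, -0.095 to 0.12 for Dgat1, -0.29 to 0.028 for Dgat2 and -0.0040 to 0.32 for Plin3. In lactating females against virgin males, Plin2 was -0.031 with voom, -0.017 with the replicate block, -0.038 without those 2 libraries, -0.12 with the covariate and -0.070 to 0.10 with 1 library left out. The covariate gave Dgat1 -0.031 and Dgat2 -0.039 there, and Dgat1 0.087 in virgin males against virgin females.

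Sizes moved also where the sign held. In lactating females against virgin males Fabp1 (1.01) was 0.58 without lactating 1 and 0.29 with the covariate, Dgat2 (0.38) was 0.18 without lactating 1, and Cd36 (-0.46) was -0.27 to -0.96 with 1 library left out, the last without lactating 4, -0.75 with voom and -0.84 with the covariate.

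The number of all genes called was less stable. For lactating against virgin females (9) it was 69 with DESeq2, 3 with voom, 1 with the replicate block, 1 with the 2 groups alone, 1 without the 2 libraries, 61 with the covariate and 2 to 16 with 1 library left out. For virgin males against virgin females (13) it was 20 without the filter, 30 with DESeq2 and 10 to 18 with 1 left out. For lactating females against virgin males (119) it was 410 with DESeq2, 73 with voom, 61 without the 2 libraries and 62 to 311 with 1 left out, the highest being without lactating 2.

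Of the pathway genes called in lactating females against virgin males, Ces1e was called in 20 of 20 alternatives and Acadl in 18 of 20, the exceptions being without virgin male 6 and without that library and virgin female 2 (adjusted p 0.0668).

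The labels do not say whether replicate numbers pair the samples, and the values cannot decide it. Same-numbered libraries correlated at -0.219 to 0.477. The same number was the best partner for virgin males 4 and 5 among virgin females, and for lactating 3 and 5 among virgin males. For the other libraries it was not. With the replicate block the medians of the 10 genes were 0.017, -0.49 and 0.51. With 6 libraries a group and an SE of 0.15 to 0.47 for these genes, no difference of the size seen passed the adjustment over all genes tested, though 95% intervals left out 0 where the unadjusted p was under 0.05.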
